A study of Mus musculus with 4 samples.

Results

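The genes described here are those of the cadherin switch and of epithelial-to-mesenchymal transition (EMT). They were followed in Flk-1-positive mesoderm of lines made to gain or lose the transcription factor ER71. They were taken by symbol from the platform annotation of the arrays and are 10 of 14860 genes with a probe set of their own: the cadherin genes Cdh1, Cdh2, Cdh3 and Cdh11, the epithelial adhesion gene Epcam, and the transcription factor genes Snai1, Snai2, Zeb1, Zeb2 and Twist1. Each was read by 1 probe set. Flk-1, the product of Kdr, is the VEGF receptor on the mesoderm that gives rise to blood and vessels, and ER71 is the ETS-family factor encoded by Etv2.

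All 4 populations were sorted as Flk-1-positive cells from mouse embryonic stem (ES) cells at day 3 of differentiation in serum with ascorbic acid, and each was hybridised to 1 Affymetrix array. The first was the inducible ER71 line (iER71), labelled wild-type in genotype, with doxycycline at 1 mg/ml, as the labels give it, from day 2 to day 3. The second was iER71 without doxycycline. The third was Er71-/- and the fourth was wild-type ES cells. The labels do not give the promoter of the inducible gene, the deleted part of Er71, the number of clones or the parent lines. The ES cells had been kept on feeder fibroblasts before differentiation, and RNA was amplified from small inputs.

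The titles of the iER71 arrays contradict their other labels: the one that received doxycycline is titled control, and the untreated one is titled ER71 overexpressed. Arrays are called here by their doxycycline label. Every iER71 difference below is the array with doxycycline (titled control) minus the array without it (titled ER71 overexpressed), and it would change sign under the titles. Etv2 had log2 intensities of 10.50 with doxycycline, 10.05 without it, 8.89 in Er71-/- cells and 9.39 in wild type, and Kdr lay between 9.67 and 10.19 on all 4 arrays. Median intensities of the arrays were 71.3 to 72.3. Of the 6 markers of Flk-1 mesoderm, 4, 5, 6 and 6 were detected with doxycycline, without it, in Er71-/- cells and in wild type. Detected means at or above a log2 intensity of 6.16, the median over all probe sets and arrays, and 8843 genes were so on their brightest array. Groups of 1 array have no replicate spread, so every value is a single reading without error or test, and a gene is called where 2 arrays differ by 2-fold or more (1 on the log2 scale).

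Cadherins hold neighbouring cells together through like molecules on both sides, and their tails bind catenins and actin. When epiblast cells pass through the primitive streak to become mesoderm they lose E-cadherin (Cdh1) and gain N-cadherin (Cdh2), which is the cadherin switch of gastrulation. The zinc-finger repressors of the Snail and Zeb families act on Cdh1 and other epithelial genes through E-box motifs in DNA, and Twist1 is a basic helix-loop-helix factor of mesenchyme.

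Of the 10 genes Cdh11 gave the widest spread, 8.08-fold between its ends. Cdh2 and Cdh1 came next, with close ranges of 2.86-fold and 2.81-fold. Cdh11, known in mesenchyme and bone-forming cells, had intensities of 217 with doxycycline, 1582 without it, 1756 in Er71-/- cells and 1309 in wild type. The array with doxycycline thus stood alone at the low end. On the log2 scale these levels are 7.76, 10.63, 10.78 and 10.35 in that order of arrays. Cdh11 was lower with doxycycline by 7.28-fold against the untreated iER71 array and by 6.03-fold against wild type, whereas the 3 brighter arrays lay within 1.34-fold of each other. Its difference of -2.86 in the iER71 pair was the 8th largest in size among 8843 detected genes. Even on the dimmest array Cdh11 was above the detection level. In such bulk samples fewer cells of a type and less RNA per cell cannot be told apart.

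Cdh2, N-cadherin, had log2 intensities of 8.65 with doxycycline, 10.17 without it, 10.09 in Er71-/- cells and 9.49 in wild type. The array with doxycycline was again the lowest. The difference in the iER71 pair was -1.52, a 2.86-fold lower level with doxycycline, while Er71-/- cells were 1.51-fold above wild type. Against wild type the array with doxycycline was 1.79-fold lower, which is short of 2-fold. The 3 brighter arrays of Cdh2 lay within 1.59-fold of each other, so no order among them is read from the call size used.

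The epithelial genes differed little within the iER71 pair. Cdh1, the E-cadherin of epiblast and epithelia, had log2 intensities of 8.42 with doxycycline, 8.29 without it, 7.23 in Er71-/- cells and 6.93 in wild type. Its levels formed a high iER71 pair and a low pair of the other lines. Within the pairs Cdh1 was 1.10-fold higher with doxycycline and 1.23-fold higher in Er71-/- cells than in wild type, but the untreated iER71 array was 2.56-fold above wild type. That reference difference of 1.35 on the log2 scale was the 32nd largest in size of 8843. Where Cdh2 was 2.86-fold lower, with doxycycline, the Cdh1 levels of the pair were within 1.10-fold. In Er71-/- cells both genes were above wild type, by less than 2-fold.

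Epcam, a homophilic adhesion molecule of epithelia and ES cells, followed the order of Cdh1. Its log2 intensities were 8.52 with doxycycline, 8.18 without it, 7.87 in Er71-/- cells and 7.40 in wild type. Each step in that order was under 2-fold, and the ends lay 2.17-fold apart. The iER71 difference was 0.34, that of Er71-/- minus wild type 0.46, and that of untreated iER71 minus wild type 0.78. The probe set of Cdh3, the P-cadherin gene, was below the detection level on every array, at 5.29 with doxycycline and 5.41 on each of the other 3, where the deposited values were identical. Such ties are common in these data, with 39.6% of probe sets equal on some pair of arrays.

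**Figure D1:**
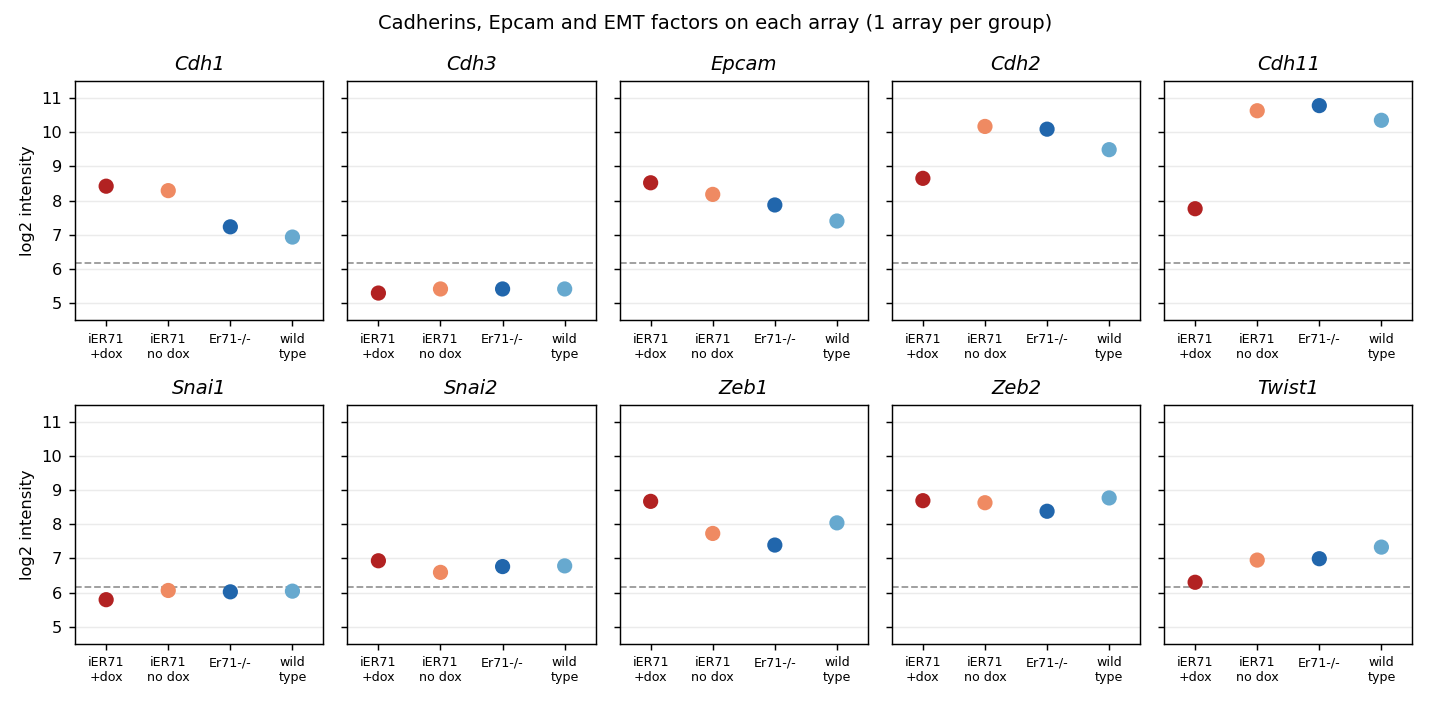
Log2 intensity (vertical axis) of each gene on the 4 arrays, 1 point per array. The dashed line is the detection level of 6.16. Cdh11 and Cdh2 are lowest with doxycycline (the array titled control), Cdh1 is high on both iER71 arrays, and Cdh3 and Snai1 lie below the line throughout.

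Markers of pluripotent and epiblast cells, which also carry Cdh1 and Epcam, differed between the arrays. All 8 of the list were measured, and 8, 6, 5 and 5 of them reached the detection level with doxycycline, without it, in Er71-/- cells and in wild type. The list's summed intensity was 2489, 6299, 7932 and 4795 in the same order. That sum follows Tdgf1, at log2 intensities of 10.07, 12.37, 12.76 and 12.01. The markers did not share an order. Pou5f1, Sox2, Utf1, Dppa4 and Zfp42 were highest with doxycycline, as Cdh1 and Epcam were. Utf1 and Dppa4 reached the detection level on that array alone, through which they passed the filter. Sox2 was 7.25 there and 7.02 on each other array. Nanog, Fgf5 and Tdgf1 were highest in Er71-/- cells. Of 7 measured endoderm markers, 4, 5, 2 and 3 reached the detection level, with summed intensities of 724, 820, 365 and 639, and Afp and Ttr were below it on every array. These markers did not share an order either. Sox17 and Hhex were highest with doxycycline and lowest in Er71-/- cells, as was the sum of the endothelial markers given below. Cer1, Spink1 and Foxa2 were highest without doxycycline, in the untreated iER71 array. The part of pluripotent, epiblast or endoderm cells in the Cdh1 and Epcam levels was not tested.

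Among the Snail genes neither reached 2-fold. Snai1, whose product is the Snail repressor needed for mesoderm to leave the mouse primitive streak, was below the detection level on all 4 arrays, with log2 intensities of 5.79 with doxycycline, 6.06 without it, 6.02 in Er71-/- cells and 6.04 in wild type. No fold is drawn from values so near the background, whose level is unknown here. Snai2, the Slug gene, was detected on all 4, at 6.93, 6.59, 6.76 and 6.78 in that order of arrays. The whole range of Snai2 was 1.27-fold, and Er71-/- and wild-type levels were within 1.01-fold.

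Zeb1 had the widest range of the 5 factor genes Snai1, Snai2, Zeb1, Zeb2 and Twist1. Its log2 intensities were 8.67 with doxycycline, 7.73 without it, 7.39 in Er71-/- cells and 8.04 in wild type. It was 1.92-fold higher with doxycycline, just under the 2-fold call, and 1.58-fold lower in Er71-/- cells than in wild type. Between the array with doxycycline and Er71-/- cells the gap was 2.44-fold. Zeb1 and Cdh1 were both highest on the array with doxycycline, but Cdh1 was only 1.10-fold above the untreated iER71 array. Zeb2 had 8.69 with doxycycline, 8.63 without it, 8.38 in Er71-/- cells and 8.77 in wild type, a total range of 1.31-fold. Both Zeb genes were lowest in Er71-/- cells.

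Twist1 had log2 intensities of 6.30 with doxycycline, 6.95 without it, 6.99 in Er71-/- cells and 7.33 in wild type. The array with doxycycline was the lowest, as for Cdh2 and Cdh11, and lay close to the detection level, so the size of its fold is uncertain. Twist1 was 1.56-fold lower with doxycycline than without it and 1.27-fold lower in Er71-/- cells than in wild type. Against wild type the array with doxycycline was 2.04-fold lower.

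The E-box read by Snail and Zeb proteins gives a view of these genes' start sites. RefSeq windows of 300 bases, from 250 before to 50 after a start (build GRCm38.p6), were used for 4 of the genes. They are Epcam (1 window), Snai1 (1), Twist1 (1) and Zeb2 (4). Cdh2 and Zeb1 lie on a chromosome that was left out of the search of these genes, so their start sites were not read. The windows were searched on both strands for CAGGTG, which reads CACCTG on the other strand, and for the ETS core CCGGAA, which reads TTCCGG there. No window of these genes held both motifs, so their matches could not overlap. The 2 windows that held an E-box are printed on the strand of the gene with the E-box in capitals. They are Epcam at chr17:87635729-87636028, plus strand, and Snai1 at chr2:167537945-167538244, plus strand.
Epcam: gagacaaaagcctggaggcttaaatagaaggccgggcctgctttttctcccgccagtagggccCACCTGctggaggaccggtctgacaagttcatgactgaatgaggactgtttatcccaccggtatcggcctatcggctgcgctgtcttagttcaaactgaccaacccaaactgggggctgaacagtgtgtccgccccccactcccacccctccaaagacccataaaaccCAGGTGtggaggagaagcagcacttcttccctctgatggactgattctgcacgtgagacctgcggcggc
Snai1: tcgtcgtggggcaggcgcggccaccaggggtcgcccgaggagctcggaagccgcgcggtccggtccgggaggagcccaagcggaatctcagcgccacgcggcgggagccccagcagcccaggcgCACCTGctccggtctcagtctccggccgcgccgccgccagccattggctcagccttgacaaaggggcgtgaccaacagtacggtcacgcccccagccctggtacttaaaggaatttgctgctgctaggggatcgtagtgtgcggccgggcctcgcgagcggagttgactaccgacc
Counted with the start as base 1 and no base 0, the E-boxes of Epcam begin at -187 and -19, and that of Snai1 at -126. Of 32851 such windows in the table, 20.2% held at least 1 E-box and 2.88% at least 2, so that a single match is common. That count left out no chromosome, unlike the search of the genes described here. The Twist1 window held no E-box and 1 ETS core, beginning at 37, where 14.9% of all windows held at least 1. The 4 Zeb2 windows held neither motif. A match is a description of letters and shows no binding in these cells.

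The first comparison is the iER71 pair, meant to show gain of ER71. Etv2 itself was 1.37-fold higher with doxycycline, short of 2-fold. Of the 8 detected members, Cdh2 and Cdh11 were at least 2-fold lower with doxycycline (titled control), and no member was higher by that size. The count of 2 of 8 (25.0%) stands beside 3.64% of all 8843 detected genes called in either direction, 2.41% called higher and 1.23% called lower. The members' median difference was 0.10 on the log2 scale, against 0.00 for all detected genes, because the other 6 lay on both sides of 0, from -0.64 (Twist1) to 0.94 (Zeb1). With wild type as the control of the array with doxycycline, 4 of 8 passed 2-fold: Cdh1 and Epcam higher, Cdh11 and Twist1 lower, where 4.1% of all genes were called. Cdh11 alone passed against both controls. Cdh1 was 2.56-fold above wild type without doxycycline as well. At 1.5-fold, Zeb1 (higher) and Twist1 (lower) joined Cdh2 and Cdh11 in the iER71 pair, where 9.48% of all genes were called.

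The second comparison, Er71-/- against wild type, is meant to show loss of ER71. Etv2 was 1.42-fold lower in Er71-/- cells, also short of 2-fold. None of the 8 detected members differed by 2-fold between Er71-/- and wild-type cells, where 2.01% of all detected genes did (0.43% higher and 1.58% lower in Er71-/- cells). Differences ran from -0.66 (Zeb1) to 0.60 (Cdh2) on the log2 scale, with a median of 0.14 against -0.011 for all detected genes. Cdh2, Epcam, Cdh11 and Cdh1 had the positive differences, of 0.60, 0.46, 0.42 and 0.29. Zeb1, Zeb2, Twist1 and Snai2 had the negative ones, of -0.66, -0.39, -0.35 and -0.02. At 1.5-fold, Cdh2 (higher) and Zeb1 (lower) were called, beside 5.99% of all genes. Set against the untreated iER71 array in place of wild type, Er71-/- cells had 1 member past 2-fold, Cdh1, which was 2.08-fold lower (1.67% of all genes called), and the Cdh2 difference was -0.08.

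**Figure D2:**
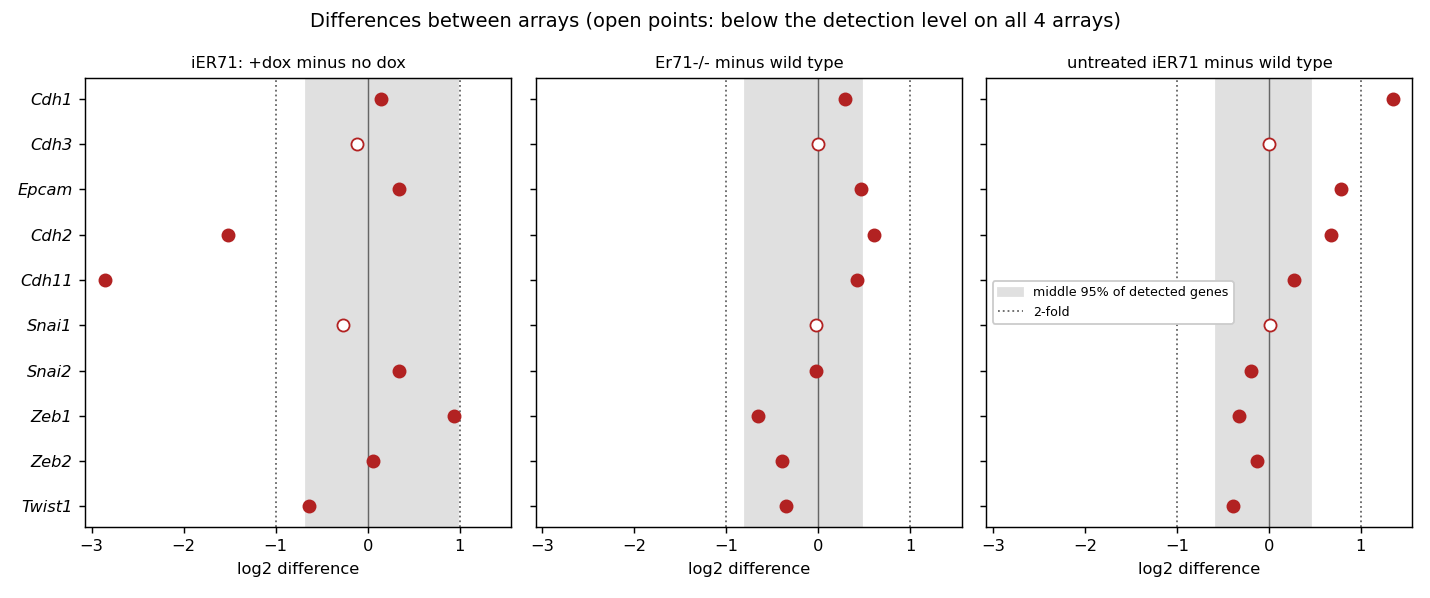
Log2 difference (horizontal axis) of each gene in 3 pairs of arrays, 1 point per gene. Dotted lines mark 2-fold and the grey band holds the middle 95% of 8843 detected genes. Cdh11 and Cdh2 are beyond 2-fold with doxycycline (array titled control) and Cdh1 is in the pair of untreated iER71 and wild type, whereas no point is in the Er71-/- pair.

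The untreated iER71 and wild-type arrays, which differ in line, gauge how far arrays lie apart with no doxycycline. Etv2 itself was 0.66 higher on the log2 scale in untreated iER71 than in wild type, a wider gap than the 0.46 with doxycycline. Cdh1 was the 1 member of 8 past 2-fold in that pair, where 0.995% of all genes were called (0.441% higher and 0.554% lower). At 1.5-fold 3 were called beside 4.14% of all genes. These 3, Cdh1, Epcam (1.72-fold) and Cdh2 (1.59-fold) all lay outside the middle 95% of detected genes, from -0.58 to 0.46. In the iER71 pair that middle range was -0.67 to 0.98 and left Cdh2 and Cdh11 outside. In the Er71 pair it was -0.80 to 0.48 and left out Cdh2 alone. The Cdh2 difference between Er71-/- and wild-type cells, 0.60, was thus no wider than that between untreated iER71 and wild type, 0.67.

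Set side by side, the iER71 and Er71 pairs share no array. Of the 8 detected members, 5 had opposite signs with doxycycline and without Er71, namely Cdh2, Cdh11, Snai2, Zeb1 and Zeb2. Cdh1, Epcam and Twist1 had the same sign in both. The Zeb2 difference with doxycycline (0.06) and the Snai2 difference in Er71-/- cells (-0.02) changed sign under quantile normalization for Zeb2 and under cyclic loess for Snai2, so the count rests in part on unsettled signs. The share was 62.5%, beside 59.2% of 6427 detected genes whose differences were not 0 in either pair. Under the array titles the signs of the iER71 pair turn, and the opposite and equal groups change places.

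**Figure D3:**
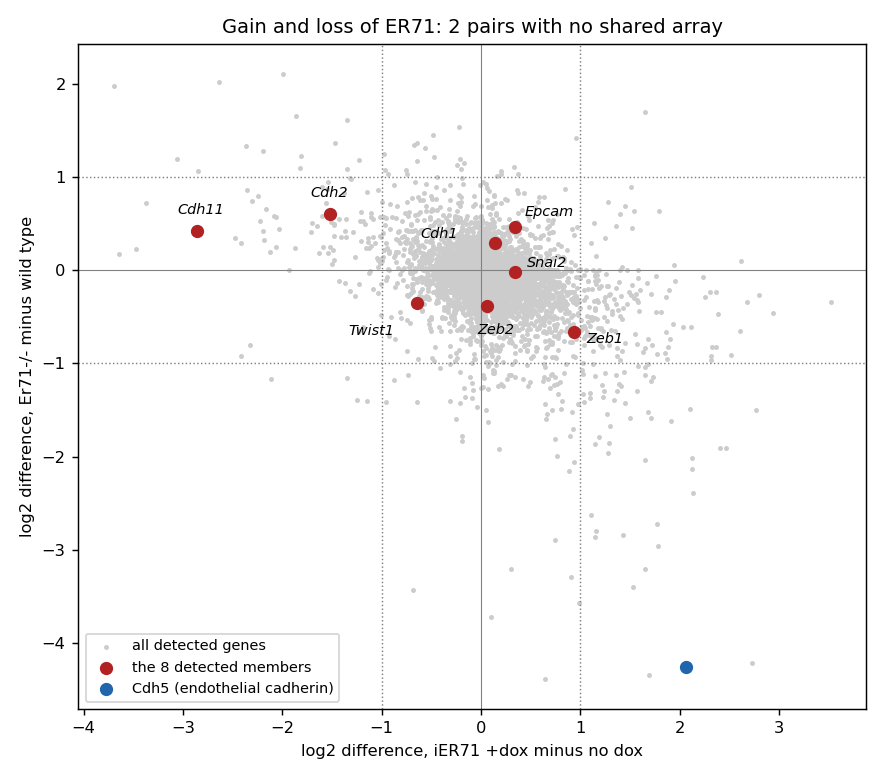
Log2 difference of iER71 with minus without doxycycline (horizontal axis; with doxycycline is the array titled control) against Er71-/- minus wild type (vertical axis), 1 point per detected gene. Cdh11 and Cdh2 lie at the upper left at (-2.86, 0.42) and (-1.52, 0.60), Zeb1 at the lower right at (0.94, -0.66), and the endothelial cadherin Cdh5 far beyond it.

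The profiles most like those of Cdh11 and Cdh2, the members called in the iER71 or the Er71 pair, were found among all detected genes by the root mean square difference of log2 profiles, each centred on its own mean over the 4 arrays. For Cdh11 these were Pdlim3, a PDZ and LIM domain gene, at 0.14, the cell-surface proteoglycan gene Gpc3 at 0.18 and Asb4 at 0.23. For Cdh2 they were the heparan sulfate sulfatase gene Sulf1 at 0.11, the bicarbonate cotransporter gene Slc4a4 at 0.12 and the opioid peptide gene Penk at 0.13. Pdlim3 had log2 intensities of 6.19 with doxycycline, 8.67 without it, 9.01 in Er71-/- cells and 8.67 in wild type, and Sulf1 had 7.30, 8.68, 8.67 and 7.85. With 4 arrays, likeness describes these arrays only.

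**Figure D4:**
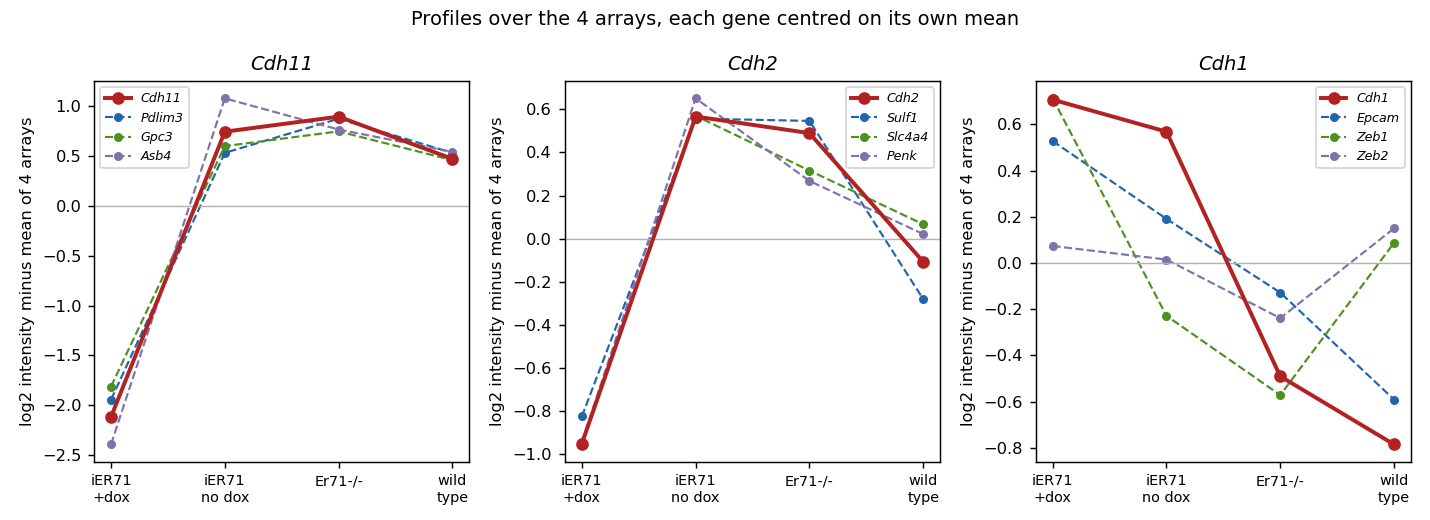
Log2 intensity minus each gene's mean over the 4 arrays (vertical axis) for Cdh11 and Cdh2, each with the 3 genes of the most similar profile, and for Cdh1 with Epcam, Zeb1 and Zeb2. Lines join the arrays to guide the eye. Cdh11 and Cdh2 are lowest with doxycycline (array titled control), and Cdh1 and Epcam are lowest in wild type.

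The remaining cadherins split by gene. Of 19 on the list, 15 were measured and 4 detected. Cdh5, the VE-cadherin of endothelium, had log2 intensities of 11.26 with doxycycline, 9.19 without it, 5.08 in Er71-/- cells and 9.34 in wild type. In the iER71 pair no other detected cadherin, members included, was called higher with doxycycline, and in the pair of Er71-/- and wild type no other was called lower in Er71-/- cells, where Cdh5 was below the detection level. Cdh20 was called lower with doxycycline, but it was above the detection level on the untreated iER71 array alone (5.75, 7.25, 5.93 and 5.87), through which it passed the filter. Cdh6 had 5.89 with doxycycline, below the detection level, and 6.76, 6.90 and 6.76 on the other arrays in order. Cdh4 was 1.48-fold lower with doxycycline. In the Er71 pair Cdh4, Cdh6 and Cdh20 differed by at most 0.14. The 8 endothelial markers, which include Cdh5, were all called higher with doxycycline, beside 2.41% of all detected genes, but Emcn and Cldn5 passed the filter only through the array with doxycycline, where they are high. Their summed intensity was 8279 with doxycycline, 2151 without it, 304 in Er71-/- cells and 2821 in wild type. In Er71-/- cells 0 of the 8 reached the detection level. Cdh2 and Cdh11 there were 1.51-fold and 1.34-fold higher than in wild type. Other cells of the gate that can carry Cdh2 or Cdh11 were read by fixed marker lists. Of 8 fibroblast feeder markers, 3 reached the detection level on each array and Col6a3, Dcn, Lum, Fap and S100a4 were below it on all 4. The summed intensity was 598 with doxycycline, 509 without it, 476 in Er71-/- cells and 501 in wild type, with Thy1 highest with doxycycline (7.97 on the log2 scale, against 6.65 to 7.06) and Col1a1 lowest there (7.09, against 7.32 to 7.34). Of 6 cardiac mesoderm markers, 3, 5, 5 and 5 reached it, with sums of 460, 949, 1502 and 802 in the same order, lowest with doxycycline as for Cdh2 and Cdh11. The Flk-1 mesoderm markers summed to 1647, 2182, 2484 and 2242, also lowest with doxycycline. Kdr went the other way, at log2 intensities of 10.19 with doxycycline, 9.96 without it, 9.67 in Er71-/- cells and 9.89 in wild type. The other markers of that list were each lowest with doxycycline. Pdgfra (5.30, 7.67, 8.64 and 7.31 on the log2 scale) and Bmp4 (7.14, 9.07, 8.98 and 8.98) were called lower there, beside 1.23% of all detected genes. The Pdgfra value with doxycycline was below the detection level. Neuroectoderm markers, 5 of 6 detected on each array, summed to 804, 1174, 1105 and 805. The part of a shift in cell makeup in the Cdh2 and Cdh11 levels was not tested.

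With doxycycline 2.41% of all detected genes were called higher and 1.23% lower. Of 11 detected catenin and other adherens junction genes, 1 was called higher and none lower, with a median difference of 0.09. The called gene was Tjp1, the ZO-1 scaffold that links junctions to actin (2.06-fold). Jup, plakoglobin, was 1.65-fold higher, Ctnna1 (alpha-catenin) 1.26-fold and Ctnnd1 (p120-catenin) 1.25-fold. None passed 2-fold in the Er71 pair, where 2.01% of all detected genes did. Vinculin (Vcl) was 1.26-fold higher in Er71-/- cells, Tjp1 1.25-fold lower and Ctnnb1, beta-catenin, 1.10-fold lower.

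Epithelial junction and keratin genes did not go one way. Of 14 detected, 1 was called higher with doxycycline, the tricellular junction gene Marveld2 (2.42-fold), and none lower, for a median of 0.14. Of all detected genes 2.41% were called higher and 1.23% lower. Krt18 (1.81-fold) and Krt19 (1.66-fold) were lower with doxycycline. Cldn6 was above the detection level on the untreated iER71 array alone, at 6.38. None of the list passed 2-fold in the Er71 pair, where 2.01% of all detected genes did. The list's median there was 0.04, and Cldn4 was 1.77-fold lower in Er71-/- cells. Marveld2 had 6.23 in Er71-/- cells and 5.50, below the detection level, in wild type. Among regulators of the epithelial state 5 of 11 were detected and none passed 2-fold in either pair (3.64% and 2.01% of all detected genes did). The splicing regulator Esrp1 differed most in both, by 0.11 and 0.37 on the log2 scale.

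In the iER71 and Er71 pairs 3.64% and 2.01% of all detected genes were past 2-fold. Other EMT transcription factors gave no such gene among 13 detected, in either pair. The largest differences with doxycycline were those of Klf8 (-0.53), the chromatin protein gene Hmga2 (-0.50), Gsc (-0.38) and Id2 (0.34), with Klf8 and Gsc below the detection level on the array with doxycycline. In Er71-/- cells Id1, a helix-loop-helix inhibitor, was 1.74-fold and Hmga2 1.55-fold higher. Of 15 detected corepressors and stability factors of Snail and Zeb proteins, none passed 2-fold in either pair. The corepressor gene Rcor1 was 1.44-fold lower and the LIM protein gene Ajuba 1.43-fold higher in Er71-/- cells.

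Of all detected genes 1.23% were at least 2-fold lower with doxycycline and 2.41% higher. Of 15 detected mesenchymal and matrix genes, 2 were lower by that size and none higher, with a median of -0.05. These were the proteoglycan gene Vcan, at log2 intensities of 6.37 with doxycycline, 8.78 without it, 8.69 in Er71-/- cells and 9.61 in wild type, and the hyaluronan synthase gene Has2, at 8.05, 9.48, 9.66 and 9.77. Both were lowest with doxycycline, as Cdh2 and Cdh11 were. In Er71-/- cells, however, Vcan (-0.92 on the log2 scale) and Has2 (-0.11) were below wild type, whereas Cdh2 and Cdh11 were above it. Sparc was 1.63-fold higher with doxycycline. In the Er71 pair, where 2.01% of all detected genes passed 2-fold, Acta2 was the 1 gene of the list to do so (2.40-fold lower in Er71-/- cells). Its level was 8.35 in wild type against 6.92 to 7.09 on the other 3 arrays. Of 12 detected primitive streak factors, Lhx1, Msgn1, Mixl1, Eomes and Mesp1 were called lower with doxycycline (1.23% of all detected genes were) and Lhx1 and Mesp1 higher in Er71-/- cells (0.43%), with list medians of -0.54 and 0.22. Msgn1 passed the filter only through the untreated iER71 array, where it is high, and Lhx1 and Mesp1 were below the detection level with doxycycline. Untreated iER71 also had Msgn1 (1.28 on the log2 scale) and Lhx1 (1.25) called higher than wild type. There 0.441% of all detected genes were called higher, and no streak factor was called lower.

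**Figure D5:**
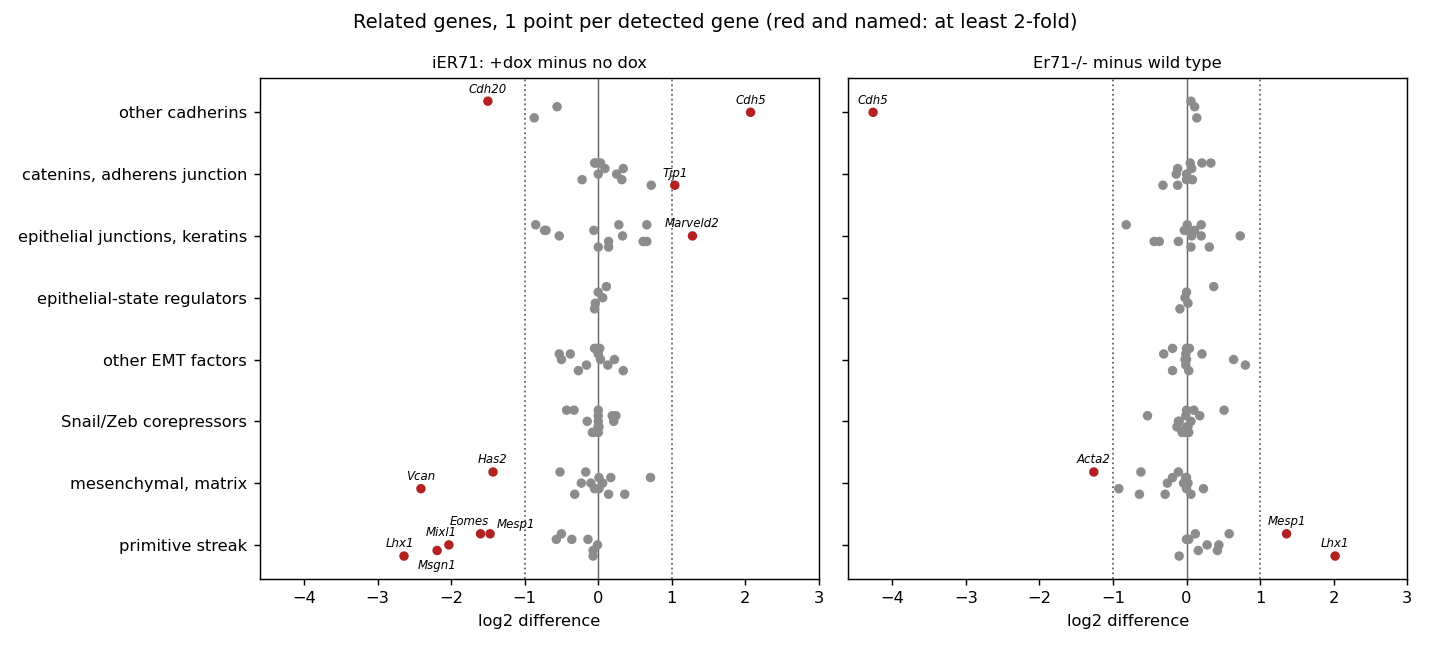
Log2 difference (horizontal axis) of each detected gene of 8 lists of related genes in the iER71 pair (left; with doxycycline is the array titled control) and the Er71 pair (right). Dotted lines mark 2-fold, and genes past it are red and named. Cdh5 is far to the right with doxycycline and far to the left in Er71-/- cells, and the lists of other EMT factors and corepressors lie within the lines.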

How the data were processed

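The values are linear intensities, deposited by the authors for 23332 probe sets on 4 arrays, 1 array per group. Expression Console (Affymetrix), RMA and the build mm8 stand in the submitters' processing notes, with no version, role or order. RMA usually returns log2 values, so the step to a linear scale is not given in the sources used here, and log2 was taken here with no pseudocount. The design had left the scale open, and the comparisons were kept. Probe sets with exactly 1 symbol (14996) were used, the brightest per gene. Detection calls and scanner files were not used here, and the number of arrays limits precision.

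The genes and lists were chosen with earlier results of these data known. Named beside the 10 members, Etv2 and Kdr were, per list of related genes, up to 4 with the largest difference in each of the iER71 and Er71 pairs and all past 2-fold, and 3 like profiles per member called in either pair. Genes of the cell marker lists were named after their values were seen. Fold calls were tested on simulated data. Alternatives were 3 normalizations, an offset of 50, 2 other filters, means over probe sets, a 1.5-fold call, other controls and the titled direction. Analyses used Python 3.11.15, numpy 2.4.6, pandas 2.3.3, matplotlib 3.10.9, R 4.3.3 and limma 3.58.1 (cyclic loess).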

Additional observations from a re-analysis of the deposited data

How the results depend on the processing

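No paired analysis was possible because each group has 1 array and the labels carry no replicate numbers. Under median centring, quantile normalization, cyclic loess, an offset of 50 on the linear scale, the stricter detection filter, no filter and means over probe sets, the members past 2-fold were Cdh2 and Cdh11 in the iER71 pair, none in the Er71 pair and Cdh1 in the pair of untreated iER71 and wild type. Over these settings Cdh11 ranged from -2.94 to -2.61, Cdh2 from -1.58 to -1.41 and Zeb1 from 0.80 to 0.94 in the iER71 pair, and Cdh1 from 1.07 to 1.40 in the reference pair. Means over probe sets could not move these differences, as each member has 1 probe set. The filters only decide which members are kept and could not move them either. The small Zeb2 difference of the iER71 pair ranged from -0.01 to 0.06 and the Snai2 difference of the Er71 pair from -0.02 to 0.01, so neither has a settled direction. The offset left 169 and 75 genes past 2-fold in the iER71 and Er71 pairs, against 322 and 178, and the stricter filter kept 6 members in place of 8. At 1.5-fold, 4 members were called in the iER71 pair (1 higher and 3 lower), 2 in the Er71 pair (1 each way) and 3 in the reference pair (3 higher), by the construction of the lower threshold. With wild type as the control, 4 members were called with doxycycline (2 higher, 2 lower), and with untreated iER71 as the control 1 was called in Er71-/- cells (lower). In the direction of the titles, Cdh2 and Cdh11 count as 2 higher and 0 lower.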
